A study of Mus musculus with 28 samples.

Results

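The heart muscle genes Myh6, Myl7, Myl4, Tnnt2, Tnni3, Actc1, Nppa and Sln were followed in messenger RNA of whole mouse lung. The 8 genes were picked by symbol as genes of cardiac muscle cells, with their behaviour in these libraries already known, so their levels and fold changes are given as a description with no p-value, and nothing is read from counts of them past a threshold. They are 8 of 35880 gene identifiers in the count table, and all 8 were among the 14887 genes that passed the filter on low counts. The groups, all from wild type male C57BL/6 mice aged 8-12 weeks, were carbon black (fine carbon particles) at 10 mg/m3, ozone at 2 ppm, both agents together (called co-exposure), and sham. Each exposure lasted 3 hours, and day 1 groups (4 libraries each) had 1 exposure while day 4 groups (3 libraries each) had 4. RNA came from homogenate of pulverised whole lung, a bulk sample in which fewer cells of a type and less RNA per cell cannot be told apart. Nothing in the labels ties each library to a separate mouse. The p-values below therefore cover the spread among libraries only, which may be technical, and day cannot be told apart from the number of exposures.

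In mice, striated cardiac muscle leaves the left atrium and continues along the wall of the pulmonary veins into the lung, so whole lung can hold cardiac muscle cells of its own. The labels do not say whether heart, great vessels or chest wall were trimmed from the lungs, so muscle of the veins and adjoining heart tissue cannot be told apart here. Such cells contract through a sarcomere of myosin motors, actin filaments and troponin switches, as atrial muscle does, and atrial muscle also secretes natriuretic peptide. Atrial and ventricular muscle differ in their myosin light chains, which allows their messages to be distinguished.

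The promoter windows of 4 of the genes are shown first, because the genes moved together across libraries and code for different parts of this machinery. RefSeq (GRCm38.p6) gave windows from 250 bases before to 50 bases after an annotated start for 7 of the 8 genes, with 2 windows for Tnnt2 and no entry for Sln. All are printed 5′ to 3′ on the strand of the gene. Myl7 lies at chr11:5898733-5899032 (minus strand), Actc1 at chr2:114052826-114053125 (minus strand), Nppa at chr4:148000472-148000771 (plus strand) and Myh6 at chr14:54966558-54966857 (minus strand). Capitals mark matches on either strand to the motifs searched.
Myl7: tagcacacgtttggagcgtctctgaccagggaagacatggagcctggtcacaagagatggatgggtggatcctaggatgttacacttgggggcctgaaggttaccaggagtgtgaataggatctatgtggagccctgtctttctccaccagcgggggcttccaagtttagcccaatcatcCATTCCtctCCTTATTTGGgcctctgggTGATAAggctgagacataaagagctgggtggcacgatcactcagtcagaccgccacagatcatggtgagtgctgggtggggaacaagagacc
Actc1: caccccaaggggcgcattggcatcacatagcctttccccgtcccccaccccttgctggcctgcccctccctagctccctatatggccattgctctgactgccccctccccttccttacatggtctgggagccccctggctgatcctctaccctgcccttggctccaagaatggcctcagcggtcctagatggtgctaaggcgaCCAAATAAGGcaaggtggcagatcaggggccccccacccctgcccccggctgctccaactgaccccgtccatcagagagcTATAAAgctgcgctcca
Nppa: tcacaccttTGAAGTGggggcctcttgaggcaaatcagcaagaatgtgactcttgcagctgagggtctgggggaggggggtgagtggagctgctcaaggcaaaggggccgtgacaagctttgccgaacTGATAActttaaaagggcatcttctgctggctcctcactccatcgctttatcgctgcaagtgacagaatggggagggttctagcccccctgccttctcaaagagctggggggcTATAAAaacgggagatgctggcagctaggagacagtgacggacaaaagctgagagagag
Myh6: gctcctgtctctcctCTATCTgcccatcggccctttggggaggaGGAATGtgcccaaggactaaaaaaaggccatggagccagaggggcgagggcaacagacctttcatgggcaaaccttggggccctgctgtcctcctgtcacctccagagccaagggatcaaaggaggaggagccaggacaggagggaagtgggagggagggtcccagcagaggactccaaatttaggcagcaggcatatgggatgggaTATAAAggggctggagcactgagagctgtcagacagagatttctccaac
The motifs searched were the CArG box (bound by serum response factor), the MEF2 element, the GATA motif, the Nkx2-5 type motif, the MCAT motif and the TATA box. Matches of different motifs did not overlap in these 4 windows. A CArG box stood 61 bases before the start of Myl7 and 47 bases before that of Actc1, so 2 of the 8 windows held a CArG box, against 1.63% of 32851 mouse promoter windows. The same 10 letters form both boxes, read on opposite strands. The GATA motif, here the word GATA with an A or T before it and an A or G after it, stood 42 bases before the start of Myl7, 122 bases before that of Nppa and 235 bases before that of Myh6, and was found in 4 of the 8 windows and 29.8% of all windows. The MCAT motif CATTCC stood 70 bases before the start of Myl7 and 206 bases before that of Myh6, and was found in 3 of the 8 windows and 14.7% of all windows. The Nkx2-5 type motif TNAAGTG stood 241 bases before the start of Nppa, in 1 of the 8 windows and 11.5% of all windows. The TATA box TATAAA stood 9 bases before the start of Nppa and past the annotated starts of Myh6 and Actc1, in 3 of the 8 windows and 13.6% of all windows. The MEF2 element was found in 0 of the 8 windows and 3.19% of all windows. These matches describe letters in the windows.

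Levels are CPM, each count scaled by the total of its library, after correction by TMM, edgeR's trimmed mean method. Divided by the length of the principal transcript, the median level over the 28 libraries was highest for Myl7 at 68.7 CPM per kb, followed by Actc1 at 56.4, Tnnt2 at 45.3 and Myl4 at 40.8 CPM per kb. Myh6 followed at 29.3, Tnni3 at 27.1, Nppa at 11.3 and Sln at 4.91 CPM per kb. This order was not fixed from library to library. Myl7 ranked between 1 and 3 in every library, Actc1 between 1 and 4, Tnnt2 between 2 and 5 and Myl4 between 3 and 5. Nppa ranged between 4 and 8, and Sln was at 7 or 8.

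The 8 genes rose and fell together from library to library. Their summed level ran from 131 to 1460 CPM, a ratio of 11.1, with a median of 449 CPM. The lowest sum was in library 4 of carbon black at day 1 and the highest in library 3 of carbon black at day 4. That day 4 library ranked first for all 8 genes, at 3.26 times the median sum, and the day 1 library was among the lowest 3 for all 8. Both extremes were thus exposed to carbon black. At day 4 the sums were 247, 466 and 1460 CPM with carbon black, 209, 159 and 171 CPM with ozone, 185, 445 and 775 CPM with co-exposure, and 430, 836 and 819 CPM in sham. Ozone was the one day 4 group whose 3 libraries all lay below the lowest sham library. At day 1 the sums were 225, 575, 396 and 131 CPM with carbon black, 298, 297, 453 and 572 CPM with ozone, 444, 602, 507 and 646 CPM with co-exposure, and 502, 461, 593 and 369 CPM in sham. The day 1 sums of every exposed group overlapped those of sham. The spread within groups was large, with a standard deviation (SD) of the log2 sum of 0.704 and 45.5% of the log2 variance lying between groups. Part of such a share arises by chance alone with groups this small, and the genes were chosen with a group difference known.

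**Figure D1:**
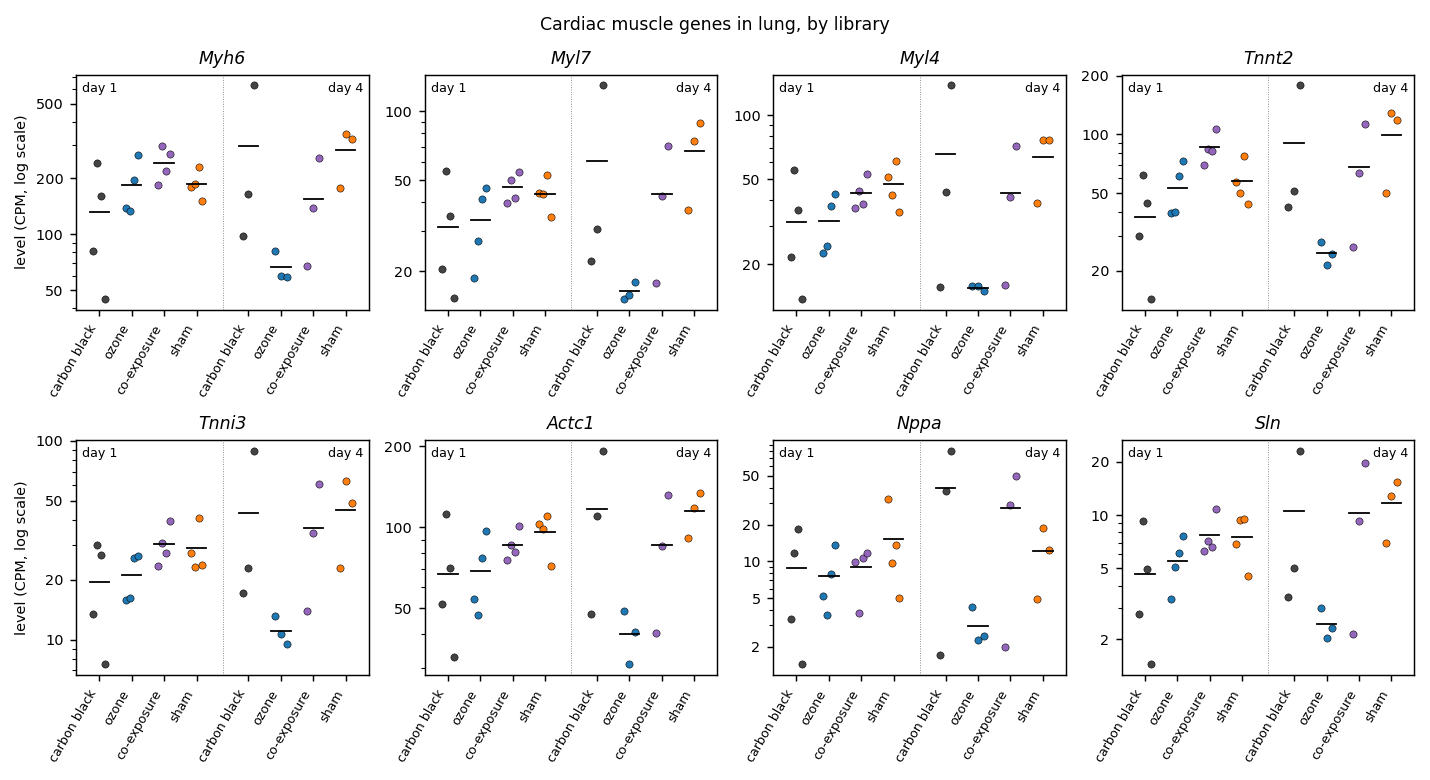
Level of each of the 8 cardiac muscle genes in every library (CPM, log axis), with 1 point per library, a bar at the group mean, and day 1 groups left of the dotted line. The day 4 ozone points lie below all day 4 sham points in all 8 panels, and the same day 4 carbon black library is highest in all 8.

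Across the 28 libraries, the Pearson correlations of log2 CPM among the 28 pairs of genes ran from 0.749 to 0.974, with a median of 0.942, and without Nppa the lowest was 0.912. After subtracting group means they ran from 0.784 to 0.985. The points share library, depth and scaling, and the correlations are given as a description. Compared with the level of Myh6 in the same library, the levels of the other 6 genes besides Nppa varied between 1.77-fold (Tnnt2) and 3.17-fold (Sln) over all libraries. The ratio of Nppa to Myh6 varied 18-fold, between 0.0128 in library 2 of co-exposure at day 1 and 0.23 in library 2 of carbon black at day 4. Nppa therefore kept least closely to the common pattern. The biological coefficient of variation within groups was 37.2% for Actc1, between 45.2% and 54.4% for Tnnt2, Myl7, Tnni3, Myl4, Myh6 and Sln, and 83.7% for Nppa. These values lay between the 94.6 and 98.3 percentiles of all genes tested.

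The thick filament proteins come first in the sarcomere. Myh6 (ENSMUSG00000040752, chromosome 14, 54941921 to 54966927 on GRCm38) codes for the alpha heavy chain of cardiac myosin, the motor of atrial muscle and of the adult mouse ventricle. Its level at day 4 was 97.4, 165 and 630 CPM with carbon black, 81.6, 59.7 and 58.6 CPM with ozone, and 67.3, 139 and 257 CPM with co-exposure. The sham libraries of day 4 had 178, 344 and 324 CPM. The 4 lowest of these libraries were the 3 of ozone and 1 of co-exposure, and 2 libraries each of carbon black and co-exposure also lay below the lowest sham library. At day 1 Myh6 had 81.3, 240, 160 and 44.9 CPM with carbon black, 138, 134, 196 and 266 CPM with ozone, 183, 297, 219 and 269 CPM with co-exposure, and 180, 185, 229 and 150 CPM in sham, and every exposed group overlapped sham. Myl7 (ENSMUSG00000020469, chromosome 11, 5896637 to 5898782) codes for the regulatory light chain of atrial myosin and was at 15.1, 15.8 and 18 CPM with ozone at day 4, against 36.9, 74.1 and 89.2 CPM in sham. Myl4 (ENSMUSG00000061086, chromosome 11, 104550663 to 104595753), the essential light chain of atrial myosin, was at 15.8, 15.7 and 14.9 CPM with ozone, against 38.6, 76.2 and 76.3 CPM in sham. For both light chains, every ozone library was below every sham library, and sham library 1 was the lowest of its group, as it was for Myh6. Myh6 and its neighbour Myh7 share near-identical sequence, as do the cardiac, skeletal and smooth muscle actins, so the split of reads between such copies is uncertain.

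The thin filament genes behaved alike. Tnnt2 (ENSMUSG00000026414, chromosome 1, 135836354 to 135852260), which codes for the troponin subunit that binds tropomyosin, had 28, 21.4 and 24.3 CPM with ozone at day 4, against 50.3, 129 and 118 CPM in sham. Tnni3 (ENSMUSG00000035458, chromosome 7, 4518305 to 4524229), the inhibitory troponin of adult heart, had 13.1, 10.7 and 9.49 CPM with ozone, against 22.8, 62.8 and 48.9 CPM in sham. Actc1 (ENSMUSG00000068614, chromosome 2, 114047282 to 114053548) codes for cardiac actin, the thin filament itself. Actc1 had 48.7, 30.9 and 40.8 CPM with ozone, against 91.4, 118 and 134 CPM in sham. In each of the 3 genes the highest ozone library was below the lowest sham library, and sham library 1 was the lowest of its group.

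The last 2 genes belong to secretion and to calcium handling. Nppa (ENSMUSG00000041616, chromosome 4, 148000722 to 148002079) codes for atrial natriuretic peptide, a hormone that lowers blood volume and pressure. Nppa had 1.73, 38.0 and 80.7 CPM with carbon black at day 4, 4.26, 2.26 and 2.44 CPM with ozone, and 2.00, 29.2 and 50.1 CPM with co-exposure. The day 4 sham libraries had 4.93, 18.9 and 12.5 CPM. In both the carbon black and the co-exposure group, 2 libraries were above every sham library and 1 was below every sham library, so both groups reached beyond sham on either side. At day 1 Nppa had 3.40, 11.8, 18.5 and 1.44 CPM with carbon black, 5.23, 3.66, 7.89 and 13.6 CPM with ozone, 9.98, 3.79, 10.7 and 11.8 CPM with co-exposure, and 32.3, 9.64, 13.5 and 5.03 CPM in sham. Sln (ENSMUSG00000042045, chromosome 9, 53850164 to 53854560) codes for sarcolipin, a small inhibitor of the calcium pump that is enriched in atrial muscle. Sln had 2.98, 2.03 and 2.30 CPM with ozone at day 4, against 6.97, 12.8 and 15.4 CPM in sham.

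All 8 genes were lower with ozone than with sham at day 4, at a mean of 20.8% (Sln) to 35% (Actc1) of the sham mean, and the summed level averaged 180 ± 27 CPM with ozone, against 695 ± 230 CPM in sham (SD, n = 3 each). Fold changes below are log2 values with the standard error (SE) of a fit of all 28 libraries with edgeR's quasi-likelihood method. They were -2.08 ± 0.62 for Myh6, -2.04 ± 0.59 for Myl7 and -2.04 ± 0.61 for Myl4. The troponins had -2.01 ± 0.57 (Tnnt2) and -2.01 ± 0.60 (Tnni3), and Actc1 had the smallest value of the 8 at -1.52 ± 0.46. Nppa had -2.01 ± 1.17 and Sln -2.26 ± 0.72. The median of the 8 was -2.02, against -0.01 over all genes tested. The ozone and sham libraries did not overlap for 8 of 8 genes, where 20.6% of all genes tested were lower without overlap. The adjusted p (Benjamini-Hochberg over all genes tested, threshold 0.05) passed for 7 of 8, the exception being Nppa, where 20.7% of all genes tested passed. As the genes were chosen with this difference known, nothing is read from these counts. Leaving out single libraries lowered the number past the threshold to 2 without sham library 2, 0 without sham library 3, 3 without ozone library 1, 0 without ozone library 2 and 1 without ozone library 3, and left it at 7 without sham library 1. The fold change stayed negative for all 8 genes in each of these, between -2.32 and -1.92 for Myh6. That sign could not turn, as the groups did not overlap.

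**Figure D2:**
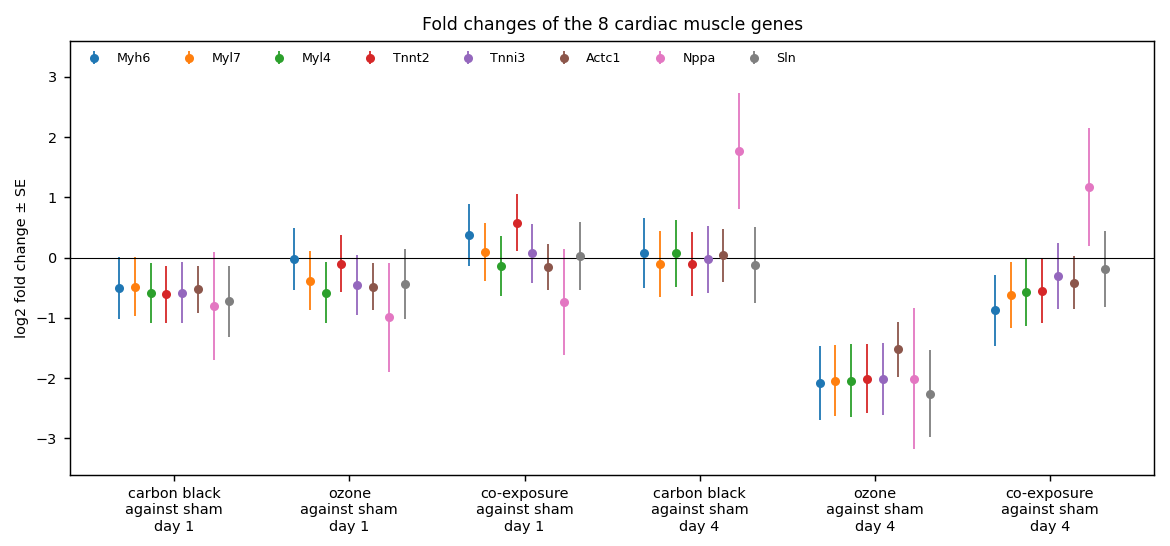
Log2 fold change of each gene against the sham group of the same day (point) with its standard error (bar), for the 6 exposure groups. The 8 day 4 ozone values lie between -2.26 and -1.52, and Nppa stands apart from the other 7 genes with carbon black and co-exposure at day 4.

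With the other exposures 0 of the 8 genes passed the threshold, where 1.66% (carbon black, day 1), 11.4% (ozone, day 1), 19.2% (co-exposure, day 1), 0.208% (carbon black, day 4) and 34.1% (co-exposure, day 4) of all genes tested passed. At day 1 the log2 fold changes lay between -0.80 and -0.48 with carbon black, between -0.99 and -0.02 with ozone and between -0.73 and 0.58 with co-exposure, with Nppa the lowest in all 3. The co-exposed libraries had 5 genes at positive and 3 at negative values. Carbon black at day 4 gave between -0.12 (Sln) and 0.08 (Myh6) for 7 genes and 1.77 ± 0.97 for Nppa. Library 3 set these values, since without it Myh6 had -1.08, Myl7 had -1.31, Sln had -1.42 and Nppa had 0.80. Co-exposure at day 4 gave between -0.87 (Myh6) and -0.19 (Sln) for 7 genes and 1.18 ± 0.98 for Nppa. Without co-exposure library 3, Myh6 had -1.45 and Nppa 0.38, and without library 1 Myh6 had -0.50 and Nppa 1.74. These comparisons share their sham libraries.

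Sham itself was compared between days, because the ozone difference rests on the day 4 sham group. The summed level averaged 695 ± 230 CPM in day 4 sham (SD, n = 3), against 481 ± 93 CPM in day 1 sham (SD, n = 4). The log2 fold changes were positive for 7 genes, up to 0.79 ± 0.50 for Tnnt2, and -0.34 ± 0.93 for Nppa, with a median of 0.61. None of the 8 passed the threshold, and 0 of all genes tested did so by edgeR or DESeq2, while the unadjusted p of edgeR was under 0.05 for 1473 genes. The change from day 1 to day 4 in the difference between ozone and sham was negative for all 8 genes, with a median of -1.61 on the log2 scale, and 0 passed, where 4.24% of all genes tested passed. For the same change with carbon black the background was 0.094% and with co-exposure 10.2%, and 0 of the 8 passed in either. Set against day 1 sham with 369 to 593 CPM, the day 4 ozone sums of 159 to 209 CPM were also lower without overlap.

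Genes of other muscle were checked in the same libraries. Myl2, the regulatory light chain of ventricular and slow skeletal muscle, was at 0 to 0.309 CPM in 24 of the 28 libraries. The other 4 had 3.11 CPM (carbon black day 4, library 3), 7.43 CPM (ozone day 1, library 2), 6.62 CPM (co-exposure day 4, library 3) and 12.6 CPM (sham day 1, library 2). Irx4, a transcription factor of ventricular muscle, had no count in any library, and the heart genes Bmp10, Nppb and Nkx2-5 stayed at or below 0.758 CPM, near the limit of 0.309 to 0.584 CPM that 3 counts allow. Myh7, the beta heavy chain, had 19.2 to 77 CPM and a correlation of -0.19 with the mean profile of the 8 genes, which is the average of their standardised log2 CPM. Myl3, the essential light chain of ventricular and slow skeletal muscle, had 0.433 to 11.7 CPM and a correlation of 0.79. With ozone at day 4 Myl3 had 0.677 to 1.01 CPM, against 3.23 to 3.65 CPM in sham, a log2 fold change of -1.92 ± 0.93 (SE) that did not pass the threshold. Of the atrial list outside the 8 genes, Mybphl had 0.97, Kcnj3 0.88, Kcnj5 0.88, Kcna5 0.31 and Dkk3 0.28. The remaining gene of that list, Bmp10, had 2 counts in total and was not tested. The 4 ventricular markers summed to 30.7 to 33.6 CPM with ozone at day 4, against 27.7 to 45.8 CPM in sham, which overlapped. Of these markers, 0 of the 3 tested passed the threshold. Most of this sum was Myh7, which did not follow the 8 genes. The overlap therefore does not describe Myl3, whose ozone and sham libraries did not overlap.

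The 4 libraries with Myl2 also held skeletal muscle messages. The 22 skeletal muscle markers summed to 729 CPM in library 3 of carbon black at day 4, 1490 CPM in library 2 of ozone at day 1, 1190 CPM in library 3 of co-exposure at day 4 and 2950 CPM in library 2 of sham at day 1. All other libraries had 11.7 to 35.3 CPM. The cardiac sum was 1460, 297, 775 and 461 CPM in the same 4 libraries. At day 4 these were the highest cardiac sums of their groups, against 247 and 466 CPM with carbon black and 185 and 445 CPM with co-exposure. At day 1 they were not, with up to 572 CPM in the other ozone libraries and up to 593 CPM in the other sham libraries. A link between the cardiac and skeletal sums was not tested. At day 4 the skeletal sum was 20.1 to 28.6 CPM with ozone, against 25 to 28.1 CPM in sham. None of the 4 libraries belonged to ozone or sham at day 4.

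**Figure D3:**
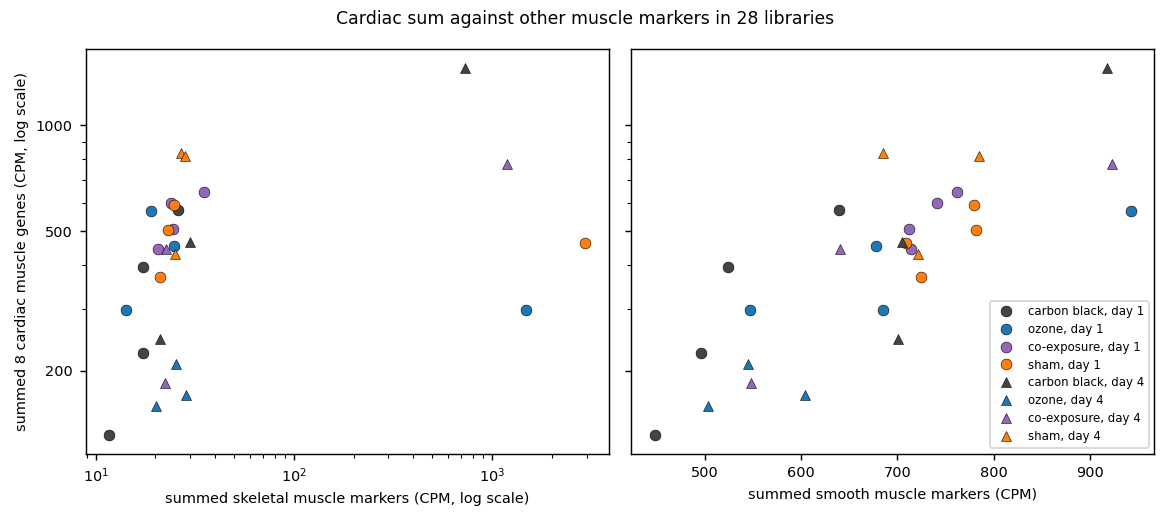
Summed level of the 8 cardiac muscle genes (CPM, log axis) against the summed skeletal muscle markers (left, log axis) and the summed smooth muscle markers (right) in the 28 libraries, with circles for day 1 and triangles for day 4. The 4 libraries above 700 CPM of skeletal markers have cardiac sums of 297 to 1460 CPM, and the 3 day 4 ozone libraries lie at low cardiac and low smooth muscle sums.

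Markers of other tissues were summed in the day 4 ozone and sham libraries, and their part in the ozone result was not tested. The 10 smooth muscle markers summed to 503 to 604 CPM with ozone, against 685 to 785 CPM in sham, with 2 of 10 past the threshold, both lower (Myh11 and Synpo2). The 10 fat markers summed to 19.5 to 90.3 CPM with ozone, against 110 to 361 CPM in sham, with 0 of 9 tested past the threshold. The 10 lung cell markers summed to 43600 to 48000 CPM with ozone, against 66400 to 78500 CPM in sham, with 1 higher (Cldn18) and 2 lower (Scgb1a1 and Pecam1). Much of this sum was Scgb1a1, the secretoglobin of club cells, which alone had 17400 to 53100 CPM over all libraries and a log2 fold change of -1.05 ± 0.25 (SE). The alveolar genes Sftpc, at -0.20 ± 0.14, and Ager, at -0.05 ± 0.11, did not pass the threshold. Mesothelial markers summed to 331 to 419 CPM with ozone, against 270 to 471 CPM in sham, with 1 higher (Msln) and 1 lower (Upk1b) of 5. The smooth muscle, fat and lung sums did not overlap between ozone and sham, and the mesothelial and skeletal sums did.

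The genes most like the 8 were sought among all genes tested by the correlation with their mean profile over the 28 libraries. The 12 most alike were Mybphl at 0.975, Tnnc1 at 0.946, Mylk3 at 0.919, Mybpc3 at 0.918, Ryr2 at 0.907, Pln at 0.903, Fndc5 at 0.900, Casq2 at 0.898, Myoz2 at 0.891, Fhl2 at 0.890, Kcnj5 at 0.879 and Csrp3 at 0.877. Without library 3 of carbon black at day 4, 11 of these 12 remained among the 12 most alike. Nppa itself stood at rank 22 with 0.86, in a profile that includes it. By list, the median correlation of the genes tested was 0.88 for 5 atrial markers (without Bmp10), 0.775 for 24 sarcomere and Z-disc genes, 0.690 for 13 calcium handling genes, 0.680 for 10 smooth muscle markers and 0.620 for 15 muscle energy genes. It was 0.540 for 9 fat markers, 0.320 for 20 skeletal muscle markers, 0.235 for 14 ion channel and gap junction genes and -0.015 for 10 lung markers. For the remaining lists it was 0.26 for 3 ventricular markers, 0.24 for 5 mesothelial markers, 0.155 for 10 transcription factors and -0.065 for 6 natriuretic peptide pathway genes. Corin, the protease that activates the peptide made from Nppa, had 0.74, while the receptors Npr1, Npr2 and Npr3 had 0.10, -0.11 and -0.02.

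**Figure D4:**
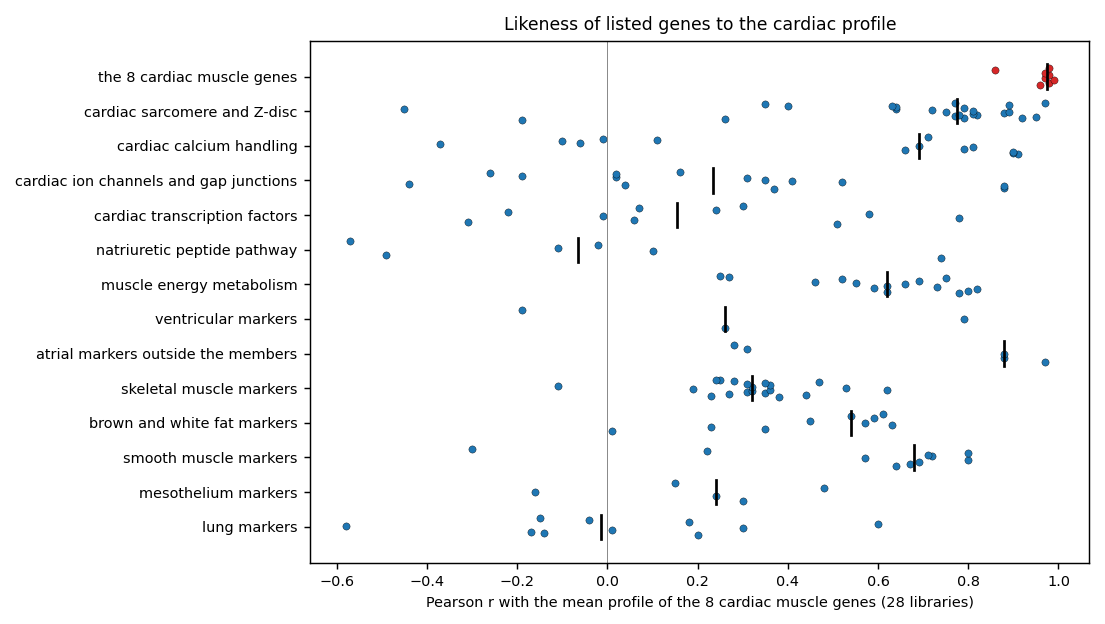
Pearson correlation of each listed gene with the mean profile of the 8 cardiac muscle genes over 28 libraries, with 1 point per gene and a bar at the median of the list. The 8 genes are part of the profile (red), the atrial and sarcomere lists lie highest with medians of 0.88 and 0.775, and the lung markers centre on -0.015.

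Other genes of 6 cardiac and muscle lists, outside the 8, were tested with edgeR's quasi-likelihood test. These lists were chosen with earlier results of these data known. Not all of the listed genes followed the 8, with correlations of 0.10 for Npr1, 0.06 for Tbx5 and -0.45 for Nebl, against 0.946 for Tnnc1. Counts of them are therefore counts of listed genes, not of heart muscle alone. Of 93 genes in lists of the sarcomere, calcium handling, ion channels and gap junctions, transcription factors, natriuretic peptides and muscle energy, 82 were tested. With ozone at day 4, 14 of the 82 were lower and 2 higher. That is 19.5% of the 82 against 20.7% of all genes tested, near the background in this fit. The median log2 fold change of the 82 was -0.88, against -0.01 for all genes. The sarcomere list had 5 of 24 lower and 0 higher. Tnnc1, the calcium-binding troponin of heart and slow muscle, averaged 3.03 ± 0.77 CPM with ozone, against 13.7 ± 3.5 CPM in sham (SD, n = 3 each), with a log2 fold change of -2.19 ± 0.52 (edgeR adjusted p = 0.00399). Mybphl, a myosin-binding protein of atrial muscle, averaged 1.97 ± 0.16 CPM with ozone, against 9.87 ± 2.3 CPM in sham, a fold change of -2.31 ± 0.66 (edgeR adjusted p = 0.0152). The others were Myoz2 (-2.15), Mybpc3 (-2.08) and Lmod2 (-2.0), a calcineurin-binding Z-disc protein, a myosin-binding protein and a thin filament nucleator. Of the genes most alike in profile, Mylk3 (-1.11 ± 0.47), Fhl2 (-0.92 ± 0.45) and Csrp3 (-1.96 ± 0.70) did not pass. Tnnc1, Mybphl, Myoz2, Mybpc3, Ryr2, Casq2 and Kcnj5 were also among the genes most alike. Their lower level with ozone is therefore not separate from that of the 8 genes.

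Calcium handling had 2 of 13 lower. Ryr2, the calcium release channel of the heart, averaged 9.91 ± 1.6 CPM with ozone, against 30.9 ± 8.3 CPM in sham (SD, n = 3 each), with a log2 fold change of -1.64 ± 0.49 (edgeR adjusted p = 0.0209). Casq2, which stores calcium in the sarcoplasmic reticulum, had -1.90 ± 0.65. Pln, the phospholamban that restrains the calcium pump, averaged 5.73 ± 1.5 CPM with ozone, against 17.1 ± 7.5 CPM in sham, and did not pass. Of 14 channel and gap junction genes, Kcnj5, a subunit of the acetylcholine-gated potassium channel, was lower at -2.0 ± 0.68. Gja1 (connexin 43, also made by many lung cells) was higher, at 214 ± 8.9 CPM with ozone, against 99.9 ± 16 CPM in sham, and had a correlation of -0.26 with the mean profile of the 8 genes. Muscle energy genes had 0 of 15 past the threshold.

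Transcription factors had 3 of 10 lower with ozone at day 4, namely Tbx5 at -0.48 ± 0.16, Tbx3 at -0.50 ± 0.15 and Tbx18 at -1.55 ± 0.47. Of 6 natriuretic peptide pathway genes 3 were lower, all receptors. Npr1, the receptor that answers atrial natriuretic peptide with cyclic GMP, averaged 125 ± 4.9 CPM with ozone, against 194 ± 20 CPM in sham (SD, n = 3 each), at a log2 fold change of -0.63 ± 0.12 (edgeR adjusted p = 0.000254). Npr2, the receptor for the C-type peptide, had -0.33 ± 0.11. Npr3, which clears natriuretic peptides, averaged 73.7 ± 5.7 CPM with ozone, against 174 ± 140 CPM in sham, at -1.24 ± 0.44 (edgeR adjusted p = 0.0498), and passed in 2 of 6 other settings. Fndc5, which lies outside the lists, was named because it followed the profile of the 8 genes in these same libraries. It had -1.82 ± 0.61 and passed (edgeR adjusted p = 0.0357), but in 1 of 6 fits with a library left out. As it was picked for that likeness, nothing is read from its call. The number of the 82 past the threshold was 5 without ozone library 1, 5 without ozone library 2, 7 without ozone library 3, 8 without sham library 2 and 8 without sham library 3. Tnnc1, Gja1 and Npr1 passed in all 6 of these fits with a day 4 ozone or sham library left out. Mybphl passed in 4 of the 6, Tbx3 and Npr2 in 3, and Myoz2, Tbx18 and Npr3 in 2. Mybpc3, Lmod2, Ryr2, Casq2, Kcnj5 and Tbx5 each passed in 1 of the 6. With only the ozone and sham libraries in the fit 51 passed, where 4063 of all genes passed. Without the 4 libraries with skeletal muscle messages 37 passed, where 3297 of all genes passed. The main fit had 3089 of all genes, and the share near the background given above is that of the main fit.

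**Figure D5:**
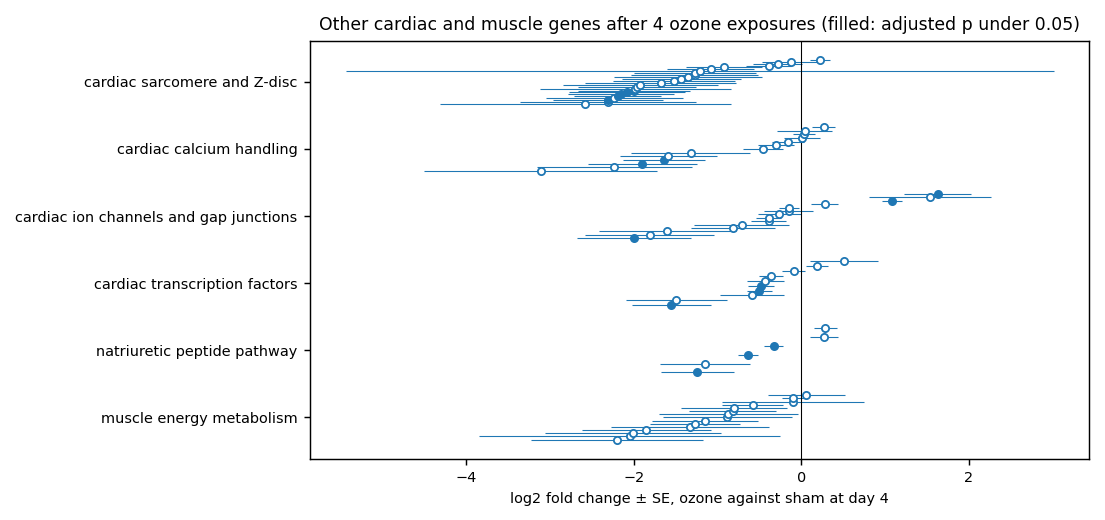
Log2 fold change with standard error, ozone against sham at day 4, of the tested genes in the 6 cardiac and muscle lists, with filled points for those past the threshold. Sarcomere and muscle energy genes lie mostly below 0, with 5 of 24 and 0 of 15 past it.

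Co-exposure at day 4 was tested on the same 82 genes, and 0 of 24 sarcomere genes, 0 of 13 calcium handling genes and 0 of 15 muscle energy genes passed the threshold. Gja1 averaged 200 ± 25 CPM with co-exposure, against 99.9 ± 16 CPM in sham (SD, n = 3 each). It was higher, as was Hcn4, the main pacemaker channel of the sinus node, at 1.41 ± 0.61 CPM with co-exposure against 0.312 ± 0.37 CPM in sham, which is near the limit of detection. Lower were Gjc1, Tbx5, Tbx3, Mef2a and the 3 receptors, with Npr1 at 90.0 ± 15 CPM with co-exposure against 194 ± 20 CPM in sham and Npr3 at 41.9 ± 13 CPM against 174 ± 140 CPM. Mef2a kept its call in 4 of 6 other settings and Hcn4 in 4 of 5. In all 10 of 82 passed, or 12.2% against 34.1% of all genes tested. The same comparison without the 4 libraries with skeletal muscle messages had 19 of these genes past the threshold, where 3975 of all genes passed.

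At day 1 carbon black moved 0 of the 82 past the threshold, and at day 4 also 0. The unadjusted p of edgeR was under 0.05 for 20 of the 82 at day 1, where it was for 1515 of all 14887 genes tested. At day 4 it was under 0.05 for 7 of the 82, where it was for 2266 of all 14887. Of the 20 genes at day 1, all except Tcap and Cacnb2 had their highest level of any library in library 2 of day 1 sham. That library held 2950 CPM of skeletal muscle markers, and its part in this count was not tested. Ozone at day 1 moved 4, or 4.88% against 11.4% of all genes tested, and co-exposure 10, or 12.2% against 19.2%. These counts were 2 and 6 without the 4 libraries with skeletal muscle messages, where 1172 and 2180 of all genes passed. Ankrd1, a stretch-responsive sarcomere protein that other cells also make, averaged 78.9 ± 15 CPM with ozone and 99.4 ± 14 CPM with co-exposure, against 38.0 ± 6.3 CPM in day 1 sham (SD, n = 4 each), and rose in both. Gja1 was higher in both too. Nebl was higher with ozone, at 0.36 ± 0.10 on the log2 scale. Mef2c, a muscle transcription factor also found in endothelium, was lower with ozone at -0.62 ± 0.19 and with co-exposure at -0.92 ± 0.20. Its call was kept in 3 of 6 other settings with ozone and in 6 of 6 with co-exposure. Also lower with co-exposure were Myh7, Slc8a1, Kcna5, Npr2, Npr3, Mme and Perm1. Slc8a1, Npr2 and Mme kept this call in 6 of 6 other settings, although Mme kept it in 2 of 8 fits with a library left out. Npr3 kept it in 4 of 6 settings, Myh7 in 3 of 6, Perm1 in 2 of 6 and Kcna5 in 2 of 5. These last 4 genes lost it without the 4 libraries with skeletal muscle messages. None of the 12 genes most alike in profile passed the threshold with any exposure at day 1. Over all 8 groups together, 25 of the 82 differed, or 30.5% against 60.3% of all genes tested.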

How the data were processed

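Messenger RNA of whole mouse lung was measured in 28 libraries of 8 groups, each library assigned to its group by its title. Paired-end reads of 51 bases from stranded libraries were quantified by the authors with Salmon 1.1.0, per the labels. Their processing notes, as submitted, further list mm10, R 3.6.3 and DESeq2 with no role. The authors deposited estimated counts per gene without normalization, of which 17.7% were not whole, and rounding to whole numbers was done here. Salmon splits reads of near-identical genes by an estimate. Totals were 5.14 to 9.72 M estimated counts per library (median 7.19 M), so that 3 counts, the limit that a count of 0 allows, correspond to 0.309 to 0.584 CPM. Intervals and limits of this kind cover counting error only.

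Symbols and 1-based positions came from GENCODE M21 (GRCm38), which named 35434 of the 35880 identifiers. Tests used edgeR 4.0.16 under R 4.3.3 (quasi-likelihood F test, robust, TMM factors 0.902 to 1.05, filterByExpr, 1 mean per group, 20 residual degrees of freedom), with Benjamini-Hochberg adjustment over 14887 genes and a threshold of 0.05. The fit was tested on simulated data. Correlations used log2 CPM with a prior count of 2. Named genes were the 8 cardiac genes, the 12 genes most alike in profile, the 3 genes of each of 6 lists with the smallest p over all groups, genes fixed by name, and the listed genes past the threshold. Some genes that count in the lists are not reported here by name. The 8 genes and the 13 lists were chosen with earlier results of these data known. Alternatives were DESeq2 1.42.0, its size factors, no low-count filter, the replicate number as a block, a fit of the compared groups alone, each library left out in turn and, chosen after seeing the data, leaving out the 4 libraries above 100 CPM of skeletal muscle markers.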

Additional observations from a re-analysis of the deposited data

Results flagged for a closer look

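Single libraries stood apart from the other 3 of their group in summed levels of marker lists, by Dixon's criterion for a gap in a group of 4, which chance meets in about 1 in 20 groups. None of the 8 cardiac muscle genes had such a library, and day 4 groups of 3 were not examined. Library 2 of ozone at day 1 had 1490 CPM of skeletal muscle markers (others 14.2 to 24.8) and 72.9 CPM of the list of ventricular markers (others 29.1 to 35.6). Library 2 of sham at day 1 had 2950 CPM of skeletal muscle markers (others 21 to 24.7), 101 CPM of ventricular markers (others 37 to 41), 1330 CPM of sarcomere and Z-disc genes (others 543 to 578), 1140 CPM of muscle energy genes (others 351 to 397) and 913 CPM of fat markers (others 151 to 194). Library 2 of carbon black at day 1 had 1130 CPM of fat markers (others 50 to 84.4) and 323 CPM of ion channel and gap junction genes (others 266 to 269). Library 1 of co-exposure at day 1 had 92.8 CPM of fat markers (others 43.2 to 48.7).

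The difference from sham changed between days, by the interaction term of the edgeR fit, for these genes of the cardiac and muscle lists. For ozone, the day 4 value minus the day 1 value on the log2 scale was -1.44 for Ankrd1 (edgeR adjusted p = 0.0199) and 0.56 for Gja1 (edgeR adjusted p = 0.0462). For co-exposure it was -1.39 for Ankrd1, -0.84 for Tbx3, -0.84 for Npr1, -0.49 for Npr2 and 2.92 for Hcn4. Ankrd1, Tbx3 and Npr1 kept these calls in 6 of 6 other settings, Gja1 and Npr2 in 3 of 6, and Hcn4 in 1 of 6.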

How the results depend on the processing

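With ozone at day 4, all 8 cardiac genes kept a negative log2 fold change under every setting tried, including each library left out. Every ozone library lay below every sham library for all 8, so leaving out a library could not turn the sign. As the genes were also chosen with this difference known, nothing is read from the kept sign. The summed level of the 8 genes spanned 3.48 on the log2 scale, and 2.67 to 3.48 with single libraries left out, the lowest without library 3 of carbon black at day 4. The counts below are of the 82 other tested genes of the cardiac and muscle lists past the threshold.

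Without the low-count filter they were 6 (co-exposure day 1), 10 (ozone day 4) and 1 (change of the ozone difference between days), and with the replicate block the last was also 1. With the compared groups alone in the fit they were 8 (ozone day 1, where 2220 of all genes passed), 51 (ozone day 4, where 4063 did) and 8 (change for ozone, where 1125 did). Without the 4 libraries with skeletal muscle messages they were 2 (ozone day 1), 6 (co-exposure day 1), 1 (carbon black day 4), 37 (ozone day 4), 19 (co-exposure day 4), 6 (change for ozone) and 43 (any group), and DESeq2 gave 45 for any group. Leaving out single libraries gave 0 to 0 for carbon black at day 1, at day 4 and for its change, and 0 to 0 for sham between days. It gave 2 to 5 for ozone and 5 to 10 for co-exposure at day 1, 5 to 17 for ozone and 8 to 11 for co-exposure at day 4, 0 to 2 for the change of ozone, 3 to 8 for that of co-exposure and 22 to 38 for any group. Among the 8 cardiac genes the count for any difference among the groups was 1, where 60.3% of all genes tested passed, and 0 to 8 with single libraries left out, and nothing is read from it.

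Over all genes tested, carbon black gave 247 calls at day 1 but 7 with the compared groups alone, and 31 at day 4 but 7 with those groups alone, 175 by DESeq2 and 505 without the 4 libraries. Same-numbered libraries of different groups correlated by -0.25 to 0.37 at day 1 and -0.10 to 0.48 at day 4 in their deviations from the group means. Since not every such pair was above 0.1, the numbers were not taken to pair the libraries, although 14 of 28 libraries correlated best with their own number, which is a hint from the data of shared variation. Some libraries would do so by chance alone, and that number was not worked out. Of the 4 libraries with skeletal muscle messages, those of day 1 were both numbered 2 and those of day 4 both numbered 3. The block moved no other count of the 82 genes by over 1.5 times. With 5.14 to 9.72 M counts (M, mega) per library, genes near 0.309 to 0.584 CPM, such as Hcn4, are measured poorly. The cause of these shifts was not tested.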
